A study of Mus musculus with 18 samples.

Results

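The genes described here are Scgb1c1, Vmo1, Bpifa1, Obp1a, Obp2a, Muc5b, Aqp5 and Sox9, 8 of the 23359 gene symbols in a table of RNA-seq expression values of cells sorted from the mouse main olfactory epithelium (MOE). They were chosen by symbol as genes of the secreted mucus and glands of the nose, and all 8 had a row in the table. Scgb1c1 and Vmo1 were picked because they were abundant in some of these libraries, so their levels are given as a description with no test. The surface of the MOE is covered by mucus, which comes largely from Bowman's glands, acini below the olfactory sensory neurons (OSNs) whose ducts run through the epithelium to the surface. The mucus bathes the cilia of the OSNs, dissolves odorants and carries small binding proteins and antimicrobial proteins.

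The cells came from 2 knock-in lines, Taar5-ires-Cre and Taar6-ires-Cre. In these lines Cre is made from the transcript of a trace amine-associated receptor (TAAR) gene and turns on a floxed fluorescent reporter, so it marks cells that have expressed that receptor gene and not glands. In the first, 7 libraries of cells with the reporter (Taar5+) and 9 of cells without it (control) carried the alleles Taar5-ires-Cre and lox-L10-GFP and came from mice at postnatal day 11 to 14. In the second, 1 library with the reporter (Taar6+) and 1 without it carried Taar6-ires-Cre and lox-ZsGreen, at postnatal day 16 to 17. All mice carried a Cre allele and a reporter allele, controls included. The strain is C57BL/6 per the labels, while the study's reporting summary gives a mixed background of C57BL/6J and 129 and an older age. The controls are whatever cells of the dissociated MOE lacked the reporter, mostly OSNs with odorant receptors per the series' design. Nothing states that libraries came from separate animals, so p-values measure the spread between libraries, which may be technical. The unit is TPM, transcripts per 1000000, in which read numbers are divided by transcript length and scaled to the same total. The depth of the libraries is unknown. In a bulk library, fewer cells of a type and less RNA per cell cannot be told apart.

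The labelled tissue could be checked with Omp, the marker protein of mature OSNs, which was between 3908 and 20070 TPM in the 16 libraries of the Taar5 line. The lowest value was that of control replicate 2, which stood apart. Its values of 13 Taar genes equal those of control replicate 1, and its TPM sum to 1000115 rather than 1000000. Only 5939 of its rows were above 0 (9866 to 17808 elsewhere), and it listed at 0 639 of 3204 genes whose median over the other libraries of the line was at least 50 TPM. In the other 17 libraries at most 47 such genes were at 0, so a 0 can be a failed estimate, and genes are described below as listed at 0. Control replicate 2 was also the highest library of the line for Scgb1c1, Vmo1, Muc5b, Aqp5 and Sox9, and Taar5+ replicate 5 for Bpifa1, Obp1a and Obp2a. Results are therefore given with and without these libraries. The 8 genes made up 10.96% of the TPM of control replicate 2 and 2.40% of Taar5+ replicate 5. In control replicate 2, most of their 109634 TPM was Scgb1c1 (71782 TPM) and Vmo1 (36592 TPM). Both were picked for their abundance, so that share follows in part from the choice of genes. Their share was between 0.0270% and 0.515% in the other 16 libraries.

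The genes lie on 4 autosomes and the X chromosome in GENCODE M21 on GRCm38, the assembly also called mm10. Scgb1c1, a 3-exon secretoglobin gene, is at chr7:140845547-140846769 on the plus strand. Muc5b, a gel-forming mucin gene of 49 exons, is at chr7:141839070-141873084 on the plus strand. Vmo1 is at chr11:70513516-70514616 on the minus strand, and Sox9 at chr11:112782224-112787760 on the plus strand. Bpifa1 is at chr2:154142880-154149219 and Obp2a at chr2:25700043-25703326, both on the plus strand. Aqp5 is at chr15:99590782-99594829 on the plus strand, and Obp1a at chrX:78085505-78091374 on the minus strand. All are annotated as protein coding there. The values are given per gene symbol, and the annotation behind them is not stated, so the exons they cover are not known.

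Reads of some of these genes could be shared with a neighbour or copy. Scgb1c1 overlaps the minus-strand genes Gm45785 and C330022C24Rik and shares 9.11% of the 50-base words of its transcript with the latter. The use of strand is not stated, so reads from this shared part cannot be told apart from reads of C330022C24Rik. No such words were shared with transcripts of Gm45785. C330022C24Rik itself was listed at no more than 0.820 TPM in any library. Obp2a shares 11.7% of such words with Obp2b, and Obp1a shares 7.20% with Gm5938. The levels of these genes are uncertain to that extent.

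Promoter sequences are shown because these genes reached their highest levels in the same few libraries, and to show whether the bases before their starts look alike. RefSeq's promoter table for GRCm38.p6 matched 6 of the 8 genes, Muc5b and Sox9 not among them. The motif TATAAA, the core of a TATA box, was searched on the strand of the gene in the 100 bases before the RefSeq start. It was present in 4 of the 6 genes (Vmo1, Bpifa1, Obp1a and Obp2a) and in 3.80% of 32851 promoters in the table. The shorter ATAAA, which every TATAAA contains, was present in 5 of the 6 and in 11.0% of all promoters, and it adds Scgb1c1. Neither was found for Aqp5, whose 250 bases before the start held 78.4% G and C against a median of 52.4% over all promoters. A match of letters is a description and not a site shown to be used. The 100 bases before the first annotated base follow, 5′ to 3′ on the strand of the gene, with the match in capitals.
Scgb1c1, chr7:140845447-140845546, plus strand: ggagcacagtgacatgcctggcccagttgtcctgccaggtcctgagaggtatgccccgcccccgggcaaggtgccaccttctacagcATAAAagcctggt
Vmo1, chr11:70514617-70514716, minus strand: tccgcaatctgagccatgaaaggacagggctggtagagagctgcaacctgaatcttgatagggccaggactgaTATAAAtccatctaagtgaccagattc
Bpifa1, chr2:154142780-154142879, plus strand: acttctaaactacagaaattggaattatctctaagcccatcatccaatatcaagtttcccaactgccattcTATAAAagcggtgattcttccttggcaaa
Obp1a, chrX:78091375-78091474, minus strand: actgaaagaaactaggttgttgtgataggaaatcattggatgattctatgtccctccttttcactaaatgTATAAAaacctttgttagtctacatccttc
Obp2a, chr2:25699943-25700042, plus strand: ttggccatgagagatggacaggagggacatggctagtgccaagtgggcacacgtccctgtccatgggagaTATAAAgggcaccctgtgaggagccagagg
In Vmo1, Bpifa1, Obp1a and Obp2a the first base of TATAAA stood 27 to 30 bases before the GENCODE start. In Obp2a the RefSeq start lies further downstream, and the motif stood 61 bases before it. In Scgb1c1 the first base of ATAAA stood 13 bases before the GENCODE start, which is 18 bases upstream of the RefSeq start.

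By group median in the Taar5 line, the most abundant of the 8 genes was Scgb1c1, a small secretoglobin of the olfactory mucosa. It lay below Bpifa1 in control replicate 1 (211 against 1189 TPM) and in Taar5+ replicate 5 (4843 against 15053 TPM). In controls its level was 195 TPM at the lowest, 803 TPM at the median and 71782 TPM at the highest, in replicate 2, where it ranked 1 of all genes. The next highest control had 2495 TPM. In Taar5+ libraries it was 177, 668 and 4843 TPM at the lowest, median and highest, the last in replicate 5. That median moved to between 481 and 1913 TPM when 1 Taar5+ library was left out. Without control replicate 2 and Taar5+ replicate 5, controls ranged from 195 to 2495 TPM and Taar5+ libraries from 177 to 3210.1 TPM, so the groups overlapped over nearly their whole range. The difference in mean log2(TPM + 1), Taar5+ minus control, was -0.51 with all 16 libraries, 0.22 without control replicate 2 and -0.93 without Taar5+ replicate 5.

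Vmo1 encodes a secreted protein related to a component of the outer layer of the egg's vitelline membrane. Its highest library in each group was the same as for Scgb1c1. Unlike that of Scgb1c1, its median was higher in Taar5+ than in control libraries. Controls had 10.4 TPM at the lowest, 185 TPM at the median and 36592 TPM at the highest, again in replicate 2, where it ranked 3. The second highest control was at 1016 TPM. Taar5+ libraries had 44.3, 300.3 and 1510.4 TPM at the lowest, median and highest, the highest in replicate 5. The difference in mean log2(TPM + 1) was 0.47. It was 1.39 without control replicate 2, 0.094 without Taar5+ replicate 5 and -0.064 without control replicate 1, the control with the least Vmo1.

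Bpifa1, a BPI fold protein that lines the airway surface and acts against bacteria, showed another pattern. Its level was 15053 TPM in Taar5+ replicate 5, where it ranked 2, and 34.7 to 154 TPM in the other 6 Taar5+ libraries. The controls were spread between 9.32 and 2007 TPM with a median of 323 TPM, which was 616 TPM without control replicate 2. Control replicate 2, the library richest in Scgb1c1, had 111 TPM. Of the 8 other controls, 6 lay above every Taar5+ library except replicate 5.

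The odorant-binding proteins Obp1a and Obp2a, lipocalins that carry odorants and other small ligands in nasal mucus, were also highest in Taar5+ replicate 5. Obp1a was at 1434 TPM there, at 34.5 TPM in replicate 1 and listed at 0 in the other 5 Taar5+ libraries. In controls it was listed at 0 in 3 libraries, with a median of 1.88 and a highest value of 111 TPM in replicate 5. Obp2a was at 804 TPM in Taar5+ replicate 5, and the other Taar5+ libraries lay between 0 and 50.2 TPM. Controls lay between 0 and 44.5 TPM, with a median of 3.33 TPM. Both genes were listed at 0 in control replicate 2.

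Muc5b, a mucin that forms the mucus gel, had low levels outside these libraries. It was at 68.6 TPM in control replicate 2 and between 0 and 2.97 TPM in the other 8 controls. In Taar5+ libraries the lowest, median and highest values were 0.00888, 1.88 and 14.7 TPM, the highest in replicate 5. The groups overlapped with or without these libraries.

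Aqp5, the water channel of the apical membrane of secretory gland cells, was at 1009 TPM in control replicate 2 and 298 TPM in Taar5+ replicate 5. The other controls lay between 0 and 54.1 TPM, with a median of 22.4 TPM. The other Taar5+ libraries lay between 2.45 and 38.6 TPM, with a median of 15.3 TPM, inside the range of the controls. Sox9, a transcription factor of Bowman's gland and duct cells, was at 71.4 TPM in control replicate 2 and at 17.1 TPM in Taar5+ replicate 5. It was between 0 and 7.71 TPM in the other controls and between 0 and 2.1 TPM in the other Taar5+ libraries. Of the other 8 controls, 5 had more Sox9 than any Taar5+ library except replicate 5, and the groups overlapped.

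**Figure D1:**
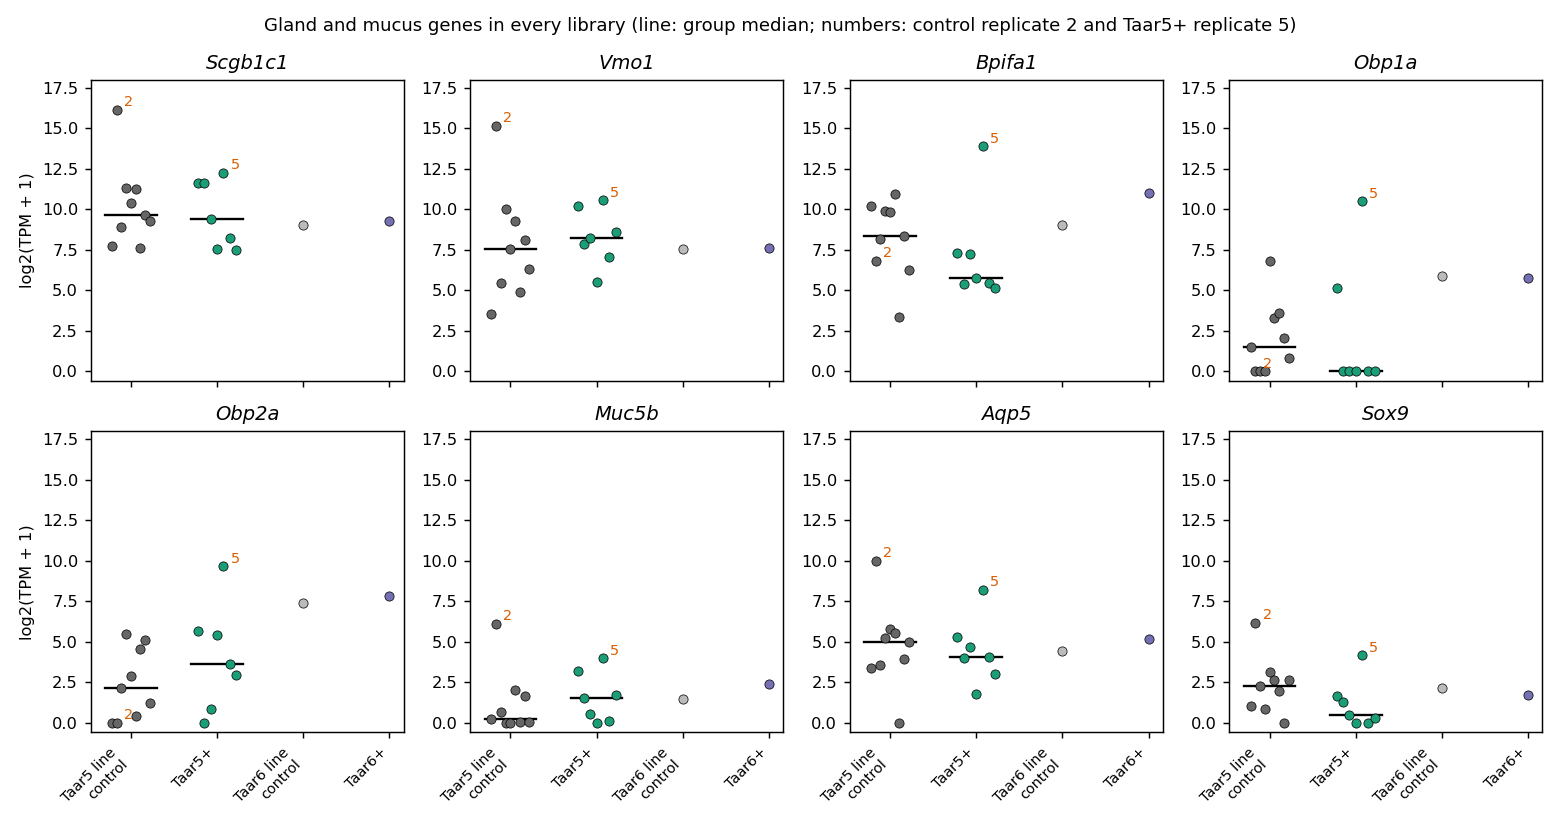
Level of each of the 8 genes as log2(TPM + 1) in the 4 groups, 1 point per library and a line at the median of each Taar5 line group. Control replicate 2 and Taar5+ replicate 5 carry their numbers, and they reach 71782 and 4843 TPM for Scgb1c1 and 111 and 15053 TPM for Bpifa1.

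The top libraries therefore differed in which of these genes were highest, while Taar5+ replicate 5 lay above the other 14 libraries for all 8. In control replicate 2, the 0 listed for Obp1a and Obp2a can be a failed estimate. Control replicate 2 was the highest of the 16 libraries for Scgb1c1, Vmo1, Muc5b, Aqp5 and Sox9, at 110.6, 176, 217, 66.0 and 57.2 times the median of the other 14 libraries. For Muc5b and Sox9 that median was only 0.316 and 1.25 TPM, so the size of these ratios is uncertain. Taar5+ replicate 5 was the highest for Bpifa1, Obp1a and Obp2a and the second highest for the other five. Bpifa1 was 98.5 times and Obp2a 123 times the median of the other 14 there. Set against each other, control replicate 2 had 14.8 times the Scgb1c1, 24.2 times the Vmo1 and 3.39 times the Aqp5 of Taar5+ replicate 5. Taar5+ replicate 5 had 136 times the Bpifa1 of control replicate 2. Each is 1 library, so these ratios have no replicate error and were not tested.

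**Figure D2:**
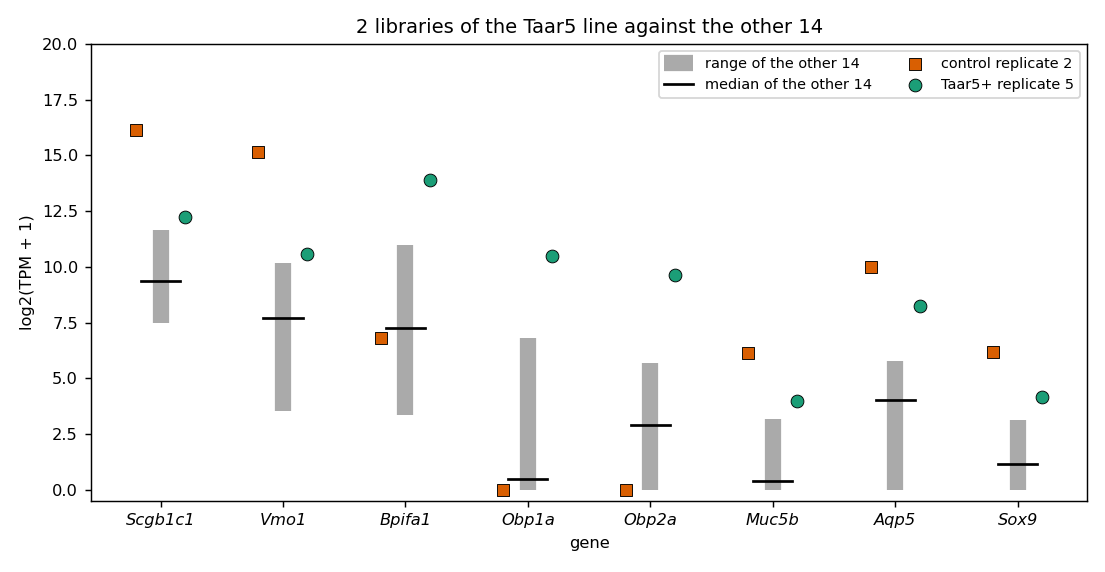
Level of each gene as log2(TPM + 1) in control replicate 2 (squares) and Taar5+ replicate 5 (circles) against the range (bars) and median (lines) of the other 14 libraries of the Taar5 line. The squares lie above the bars for Scgb1c1, Vmo1, Muc5b, Aqp5 and Sox9 and at 0 for Obp1a and Obp2a, and the circles lie above the bars for all 8 genes.

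TPM are divided by transcript length. An effect of length that remains was not tested, and the longest transcript has 455 bases in Scgb1c1 and 14964 bases in Muc5b. With that limit, the order of the levels within a group can be described. Over the 8 controls other than replicate 2 it was Scgb1c1 (median 716 TPM), Bpifa1 (616 TPM), Vmo1 (133 TPM), Aqp5 (22.4 TPM), Obp2a (4.88 TPM), Sox9 (3.27 TPM), Obp1a (2.53 TPM) and Muc5b (0.101 TPM). Over the 6 Taar5+ libraries other than replicate 5 it was Scgb1c1 (median 481 TPM), Vmo1 (265 TPM), Bpifa1 (47.9 TPM), Aqp5 (15.3 TPM), Obp2a (9.10 TPM), Muc5b (1.16 TPM), Sox9 (0.320 TPM) and Obp1a (listed at 0). The ranges of neighbours overlapped in every case in both groups. Scgb1c1, Vmo1 and Bpifa1 were above 0 in all 16 libraries.

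Taar5+ and control cells of the Taar5 line were compared to ask whether mucus and gland transcripts differed between cells with and without the reporter. For none of the 6 genes tested did the difference exceed the spread between libraries. The test was limma on log2(TPM + 1) over the 12502 genes that reached 1 TPM in 7 or more libraries of the line, a filter that all 8 genes passed, with Benjamini-Hochberg adjustment over all genes. At an adjusted p under 0.05 it called 21 genes, 0.168% of those tested, and 0 of the 6. At an unadjusted p under 0.05 it also called 0 of the 6, against 7.05% of all genes. The only alternative that called any of them was limma with array weights, which called 1, Sox9 (adjusted p = 0.0343), and 10.6% of all genes.

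Bpifa1 differed by -1.05 (SE 1.18, limma adjusted p = 0.955) on this scale, with a 95% interval from -3.52 to 1.43. Without Taar5+ replicate 5 the difference was -2.17 (unadjusted p = 0.0267, adjusted p = 0.387), and -2.34 without control replicate 2 as well (adjusted p = 0.205 in limma). Sox9 differed by -1.17 (SE 0.78, limma adjusted p = 0.922), with an interval from -2.81 to 0.47, and by -1.68 without Taar5+ replicate 5 (unadjusted p = 0.0335, adjusted p = 0.430). Without that library, 9.72% of all genes had an unadjusted p under 0.05. Obp2a had the largest positive difference, 1.61 (SE 1.22, limma adjusted p = 0.936), with an interval from -0.95 to 4.17, which fell to 0.67 without Taar5+ replicate 5. Obp1a (0.22), Muc5b (0.38) and Aqp5 (-0.27) had smaller differences with limma adjusted p from 0.978 to 0.991. The sign of each of these changed when 1 library was left out. Obp1a became -1.16 and Muc5b -0.016 without Taar5+ replicate 5, and Aqp5 became 0.39 without control replicate 2. Every interval holds 0 and also a difference of more than 1 doubling in at least 1 direction, so these libraries do not show that the groups were alike. The median difference over the 8 genes was -0.027, beside 0.020 over all genes tested.

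**Figure D3:**
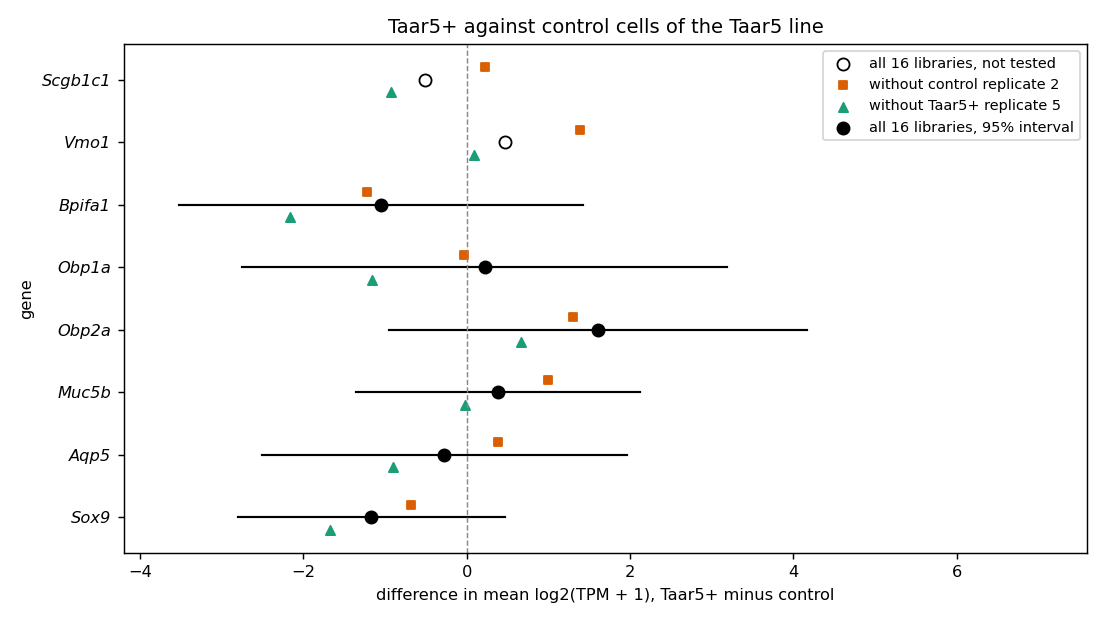
Difference in mean log2(TPM + 1), Taar5+ minus control, for each gene with all 16 libraries (circles, with the 95% interval of the limma fit where tested), without control replicate 2 (squares) and without Taar5+ replicate 5 (triangles). Every interval spans 0, and the squares and triangles of Scgb1c1, Muc5b and Aqp5 lie on opposite sides of 0.

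Markers of other cell types of the MOE differed between the same libraries, and their part in these values was not tested. The summed level of 5 sustentacular cell markers (Cyp2g1, Cyp1a2, Ermn, Sec14l3 and Cbr2), genes of the supporting cells around OSNs, was 7217 TPM in control replicate 2 and 14634 TPM in Taar5+ replicate 5. It lay between 313 and 1654 TPM in the other controls and between 161 and 3582 TPM in the other Taar5+ libraries. The list was split in control replicate 2. Cyp2g1 (3547 TPM), Cyp1a2 (2464 TPM) and Ermn (154 TPM) lay above the other 14 libraries there, and Sec14l3 (159 TPM) and Cbr2 (893 TPM) within their range. The 3 markers of horizontal basal cells (Krt5, Krt14 and Trp63) were all listed at 0 in control replicate 2 and summed to 181 TPM in Taar5+ replicate 5, against 60.1 to 123 TPM in the other controls and 0 to 17.5 TPM in the other Taar5+ libraries. The 4 blood and immune markers in the table summed to 43.2 to 496 TPM in controls, 203 TPM in Taar5+ replicate 5 and 0 to 86.6 TPM in the other Taar5+ libraries. Of respiratory secretory markers, Scgb1a1 was listed at 0 in every library, and the 3 summed to at most 4.05 TPM. Of 24 marker genes tested, limma called 0 at an adjusted p under 0.05 and 8 at an unadjusted one (7.05% of all genes), all 8 with lower means in Taar5+ cells. They were Krt5, Krt14, Trp63, Ascl3, Cd52, Cd74, Ptprc and Tyrobp. Over all genes, 672 of the 881 with a limma unadjusted p under 0.05 also had lower means in Taar5+ cells. Without control replicate 2 and Taar5+ replicate 5, limma called 7 of the 24 (3.21% of all genes), among them Krt14 (-4.44, adjusted p = 5.48e-05). Of the 401 genes called in that fit, 349 had lower means in Taar5+ cells.

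The wider families and gland genes were described with 9 lists: goblet and mucus assembly, serous gland secretion, gland fluid secretion, SoxE factors, and the other secretoglobins, BPI fold proteins, odorant-binding proteins and lipocalins, mucins and aquaporins. They held 116 genes beside the 8, of which 60 reached 1 TPM in a library of the Taar5 line. Of these 60, 29 (48.3%) were highest in Taar5+ replicate 5 and 6 (10%) in control replicate 2. Over the 16850 genes that reached 1 TPM, the shares were 9.63% and 9.80%. Control replicate 2 was thus the top library for the list genes about as often as for all genes, while Taar5+ replicate 5 was the top library for a larger share of the list genes than of all genes. In Taar5+ replicate 5 this held for 5 of 9 odorant-binding proteins and lipocalins, 4 of 6 secretoglobins, 4 of 6 mucins, 4 of 8 BPI fold proteins and 3 of 5 aquaporins. It held for 4 of 7 mucus assembly genes, 3 of 11 serous gland genes, 2 of 6 gland fluid genes and 0 of 2 SoxE factors. It also held for 3 of 5 sustentacular and 2 of 3 horizontal basal cell markers. These shares depend in part on the filter, since a gene could reach 1 TPM in Taar5+ replicate 5 alone. Scgb1b29 (1.25 TPM), Scgb1b7 (1.91 TPM) and Scgb2b27 (6.47 TPM) did so and were listed at 0 in every other library of the line. Taar5+ replicate 5 also had the most rows above 0 (17808) and control replicate 2 the fewest (5939). The part of this in the shares was not tested.

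**Figure D4:**
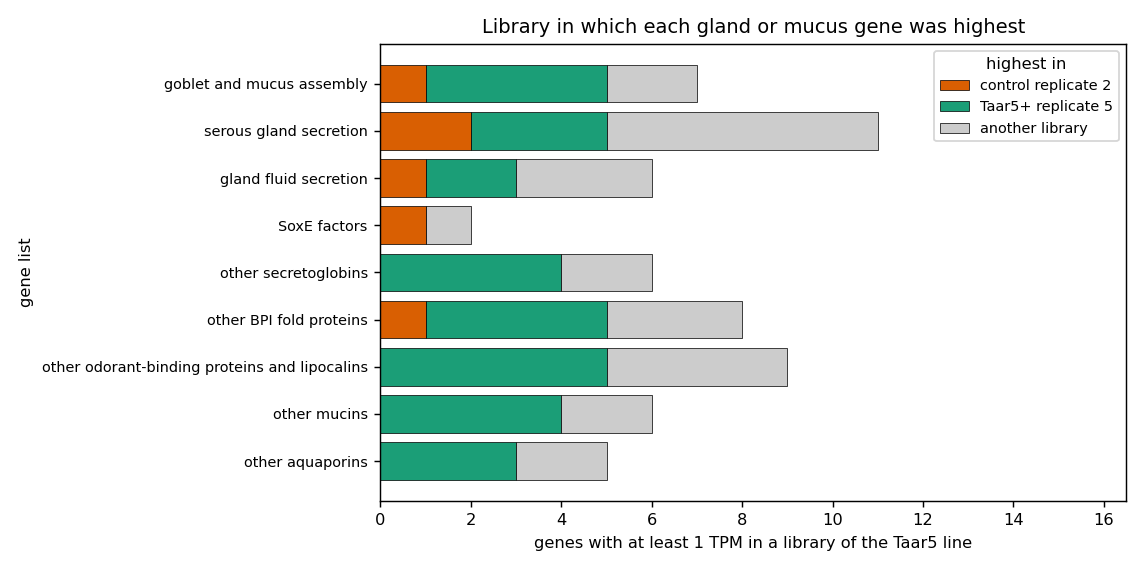
Number of genes of each list that reached 1 TPM in a library of the Taar5 line (bar length), split by the library in which they were highest. Over all lists 29 of 60 genes were highest in Taar5+ replicate 5, 6 in control replicate 2 and 25 in another library.

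Of the 116 list genes, 32 passed the filter, and limma called 0 of them (0.168% of all genes) and 6 at an unadjusted p under 0.05 (7.05% of all genes). Their median difference was 0.0017, with 16 of 32 positive. The 6 were Lyz2 and Muc20, lower in Taar5+ cells, and Lcn3, Obp2b, Muc2 and Aqp11, higher. Lcn3, Muc2 and Muc20 are named after their values were seen. Without Taar5+ replicate 5, limma called 1 of the 32 (0.512% of all genes), Lyz2 (-4.46, adjusted p = 0.0204), which encodes a lysozyme that macrophages also make. In that fit it also called the immune marker Cd74 (-4.83, adjusted p = 0.00598). Aqp11, a water channel of intracellular membranes, had a median of 29.2 TPM in Taar5+ libraries (14.6 to 58.8) and 9.10 TPM in controls (0 to 16.8), with a difference of 2.11 (SE 0.63, limma adjusted p = 0.267).

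The most abundant genes of the mucus assembly list were Xbp1, a transcription factor of secretory cells, with a median of 109 TPM over the 16 libraries, and Agr2, a protein of the endoplasmic reticulum needed for mucin assembly, with 67.7 TPM. Agr2 was at 3753 TPM in control replicate 2 and 589 TPM in Taar5+ replicate 5, against 1.84 to 207 TPM in the other 14. Xbp1 went the other way in control replicate 2, where it was at 6.53 TPM, below the other 15 libraries, and was highest in Taar5+ replicate 5 at 209 TPM. In the serous list Lyz2 (median 60.6 TPM) was highest in control replicate 8 at 459 TPM, and Wfdc2, a secreted protease inhibitor-like protein, was at 589 TPM in control replicate 2 and 312 TPM in Taar5+ replicate 5, above the 0 to 159 TPM of the rest.

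Of the gland fluid genes, the chloride cotransporter gene Slc12a2 lay between 12.7 and 101 TPM in all 16 libraries with no peak in these libraries (59.3 and 26.5 TPM). The tight junction gene Cldn10 was at 471 TPM in control replicate 2 and 66.9 TPM in Taar5+ replicate 5, against at most 46.4 TPM in the other 14. Of the relatives of Sox9, Sox10 was at 31.1 TPM in control replicate 2 and at most 2.21 TPM in the other 15 libraries of the line, while Sox8 was at 2.59 TPM at most, in control replicate 3. The 20 other secretoglobins all had a median of 0. They summed to 85.3 TPM in Taar5+ replicate 5 and at most 24.4 TPM in any other library of the line.

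Relatives of Bpifa1 split between the top libraries. Bpifb4 was at 4026 TPM in control replicate 2 and 227 TPM in Taar5+ replicate 5, and Bpifb3 was highest in neither, at 2107 TPM in Taar5+ replicate 2. Chosen after their values were seen, Bpifb9b and Bpifb9a were at 5772 and 3155 TPM in Taar5+ replicate 5, like Bpifa1. Of the lipocalins, Obp2b was at 394 TPM in Taar5+ replicate 5 and listed at 0 in control replicate 2, as were Obp1a and Obp2a, with at most 37.8 TPM in the other 14 libraries. Lcn2, a lipocalin that neutrophils also make, was highest in control replicate 1 at 34.6 TPM. The membrane mucins Muc13 and Muc1 were both listed at 0 in control replicate 2 and reached 37.0 TPM in control replicate 4 and 46.8 TPM in Taar5+ replicate 5. Aqp3, a water and glycerol channel, was at 548 and 771 TPM in the top libraries, against 5.82 to 144 TPM in the other 14.

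Genes whose TPM followed each gene most closely over the 16 libraries were named by Spearman's rho, as a description, since the libraries share the peaks above. They were picked as the highest among the 12502 genes tested, so a high rho comes in part from that choice. For Scgb1c1 they were Gpx8, Ces1d and Wfdc2 (rho 0.86, 0.85 and 0.85, and 0.81, 0.78 and 0.78 over 14 libraries without control replicate 2 and Taar5+ replicate 5). For Vmo1 they were Agr2, BC051070 and Bpifb4 (0.87, 0.86 and 0.86), of which BC051070 was at 4476 TPM in control replicate 2. For Aqp5 they were Ces1d, Slc15a2 and Clu (0.93, 0.93 and 0.91), and Ces1d, a carboxylesterase gene, was at 1341 TPM in control replicate 2 and 476 TPM in Taar5+ replicate 5. For Sox9 they were Sun2, Cdh1 and Rdx (0.90 each), of which Cdh1 encodes the epithelial adhesion protein E-cadherin.

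The genes nearest to Bpifa1 were Olfr1261, Cpxm2 and Olfr1443 (rho 0.87, 0.85 and 0.84). Olfr1261 and Olfr1443 are odorant receptor genes, a class of OSN genes, and their levels were at most 50.3 TPM. For Obp1a they were Anxa8, Stap2 and Sorbs3 (0.93, 0.87 and 0.85). Without control replicate 2 and Taar5+ replicate 5 the rho was 0.90, 0.83 and 0.80. Obp1a was listed at 0 in 5 Taar5+ and 3 control libraries, so its ranks hold many ties. For Obp2a (Nmnat1, Slc11a2 and Secisbp2) and Muc5b (Car4, Rab11fip3 and Tcf7l2) the highest rho was 0.74 and 0.75, and the carbonic anhydrase gene Car4 was at 132 TPM in control replicate 2 and 15.7 TPM in Taar5+ replicate 5.

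Among the 8 genes, Scgb1c1 was closest to Aqp5 (rho 0.86, and 0.78 over the 14 libraries) and to Vmo1 (rho 0.75 and 0.63). Of the 15 pairs of genes that were tested over the 16 libraries, 0 passed by Spearman's rho and 3 by Pearson's r at a permutation p adjusted over the pairs under 0.05. Muc5b with Aqp5 (r = 0.75, permutation p = 0.00103, adjusted p = 0.0122, rho = 0.34 with permutation p = 0.199) and Muc5b with Sox9 (r = 0.68, permutation p = 0.00669, adjusted p = 0.0334, rho = 0.28 with permutation p = 0.288) rested on the libraries farthest from the median. Without the 2 farthest, r was 0.29 and -0.0080. Aqp5 with Sox9 gave r = 0.74 (permutation p = 0.00163, adjusted p = 0.0122) and rho = 0.65 (permutation p = 0.00843, adjusted p = 0.126), and r = 0.78 without the 2 libraries farthest in Aqp5. Without control replicate 2 and Taar5+ replicate 5, r of Aqp5 with Sox9 was 0.32. Within groups it was 0.91 in Taar5+ libraries and 0.70 in controls, each with its top library included. The highest rho of Obp2a with any of the others was 0.33, with Obp1a.

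In the Taar6 line, with 1 library per group, there was no replicate check. The Taar6+ library and its control had 627 and 512 TPM of Scgb1c1 and 198 and 189 TPM of Vmo1. Bpifa1 was at 2024 TPM in the Taar6+ library against 516 TPM, a difference of 1.97 in log2(TPM + 1). Muc5b (0.93) and Aqp5 (0.72) also differed by more than 0.64, the 95th percentile of the 12502 genes. Obp1a was at 53.1 and 59.1 TPM and Obp2a at 223 and 169 TPM. Muc5b was at 4.24 and 1.75 TPM, Aqp5 at 35.2 and 20.9 TPM, and Sox9 at 2.31 and 3.45 TPM. The differences of the genes described ranged from -0.43 (Sox9) to 1.97 (Bpifa1), with a median over all 12502 genes of -0.19. The summed sustentacular markers were at 2575 TPM in the Taar6+ library and 516 TPM in its control, and the serous gland genes at 774 and 231 TPM. Lyz2 (372 and 81.0 TPM) and Reg3g (279 and 54.3 TPM) made up most of the serous sum of the Taar6+ library. Dmbt1 (3.02 and 10.1 TPM), Slpi (0 and 2.59 TPM) and Lpo (0.0777 and 0.289 TPM) went the other way. The part of these markers and list genes in the differences above was not tested. Line, reporter and age cannot be told apart between the lines, so levels were not compared across them.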

How the data were processed

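RNA-seq values of 18 libraries of FACS-sorted MOE cells were used. Per the labels and the study's methods, the authors made Smart-seq2 libraries (full-length cDNA amplified by PCR, without molecular identifiers), trimmed the reads with Trimmomatic 0.36, aligned them to mm10 with HISAT2 2.1.0 and quantified genes with Cufflinks 2.2.1. DESeq2 is named in the submitters' processing notes and was not used here. The authors deposited TPM. How these were derived, the annotation, any filter and the use of strand are not given in the sources used here. TPM keep no depth, so counting error is unknown.

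From the 23847 rows, 488 that repeat an earlier symbol were summed with it. None was a row of the 8 genes. Values were taken as log2(TPM + 1), which understates the change of low genes. Genes that reached 1 TPM in 7 or more of the 16 Taar5 line libraries were fitted with limma 3.58.1 in R 4.3.3 (lmFit, eBayes with a trend, two-sided). P-values were adjusted by Benjamini-Hochberg, and genes under 0.05 were called. The Taar values of control replicate 2 equal those of replicate 1 (13 genes) and were left out of the fit for replicate 2. None of the genes described is a Taar gene. The Taar values of control replicate 2 sum to 115 TPM, by which its total exceeds 1000000. Whether other values of this library were changed was not tested. The limma fit was first tested on simulated data with known changes. Correlations across libraries used log2(TPM + 1), with permutation tests of 100000 resamples. Python 3.11.15, numpy 2.4.6, pandas 2.3.3 and scipy 1.17.1 were used for the rest. Gene positions are from GENCODE M21 and promoters from RefSeq (GRCm38.p6).

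The 8 genes and the gene lists were chosen with earlier results of these data known. Named genes were the 8, list genes with an adjusted p under 0.05, the 2 genes of each gland list with the highest median TPM if above 0, and the 3 tested genes with the highest rho for each of the 8. Where others are named, they were chosen after their values were seen. Alternatives were another pseudocount (0.1), no filter and a filter of 5 TPM, quantile normalization, TPM rescaled without the 8 genes, eBayes without a trend, array weights, all 18 libraries with the line as covariate, the replicate number as a block, and leaving out each library. Leaving out control replicate 2 and Taar5+ replicate 5 together was added after seeing the data.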

Additional observations from a re-analysis of the deposited data

Results flagged for a closer look

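In each group of the Taar5 line, the gap between the highest or lowest library and its neighbour was set against the range of the group in log2(TPM + 1) with Dixon's test. Scgb1c1 and Vmo1 were chosen for their levels and left out. Of 12 groups (6 genes in Taar5+ and in control libraries), 4 held a library beyond the 95% critical value. The nominal rate of that test is about 1 in 20 groups, or 0.6. The share over all genes in the same libraries was not computed, so the count is not read as particular to these genes. The 12 groups share libraries and are not independent.

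Muc5b stood apart in control replicate 2, at 68.6 TPM against 2.97 TPM in the next control, and Sox9 at 71.4 TPM against 7.71 TPM. In Taar5+ replicate 5, Bpifa1 stood apart at 15053 TPM against 154 TPM in the next Taar5+ library, and Sox9 at 17.1 TPM against 2.1 TPM. Sox9 was the one gene with a library beyond the critical value in both groups. In controls it passed narrowly, with a gap over range of 0.495 against a critical value of 0.493. Cause was not tested for any of these.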

How the results depend on the processing

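Of the 6 genes tested, 0 were called in the reported limma fit and under every alternative except array weights, which called 1, Sox9 (-1.52, adjusted p = 0.0343). Array weights also called 3 list genes (Aqp11, Lyz2 and Muc20), 8 marker genes and 1329 of all genes, and moved the median of all genes by -0.18. Quantile normalization called 1 list gene (Aqp11), 1 marker gene (Cd74) and 109 of all genes. Leaving out 1 library at a time called 0 of the 6 genes, 0 to 1 list genes, 0 to 3 marker genes and 16 to 148 of all genes, against 21. The count over all genes was 148 without control replicate 2, which moved the median of all genes by -0.19, and 64 without Taar5+ replicate 5. The list gene was Lyz2, without Taar5+ replicate 5. The marker genes were Cd74, Krt14 and Tyrobp without control replicate 2, Cd52 without control replicate 7 and Cd74 without Taar5+ replicate 5. Without control replicate 2 and Taar5+ replicate 5 together, limma called 1 list gene (Lyz2), 7 marker genes and 401 of all genes. Signs changed for 5 of the 8 genes. Obp1a was -0.81 with a pseudocount of 0.1, -0.63 with array weights, -1.41 without control replicate 2 and Taar5+ replicate 5, and -1.16 to 0.82 when 1 library was left out. Aqp5 was 0.025 with a pseudocount of 0.1, 0.069 with quantile normalization and -0.90 to 0.39 when 1 library was left out. Muc5b was -0.016 to 1.0 when 1 library was left out. The untested differences of Scgb1c1 and Vmo1 were -0.93 to 0.22 and -0.064 to 1.39 when 1 library was left out, and that of Vmo1 was 2.31 with array weights. Bpifa1, Obp2a and Sox9 kept their sign in every fit that was run. With the filter of 5 TPM, Obp1a, Muc5b and Sox9 were not among the genes fitted. Medians also moved when 1 library was left out, in Taar5+ libraries to between 47.9 and 103 TPM (Bpifa1), 9.10 and 26.7 TPM (Obp2a), 1.16 and 2.04 TPM (Muc5b) and 0.320 and 0.933 TPM (Sox9), and in controls to between 0.101 and 0.383 TPM (Muc5b). The cause of these changes was not tested.

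Replicate numbers are shared by the groups, but no label ties a number to a shared animal or batch. Correlations of deviations within numbers were -0.0062 to 0.275, with 5 of 7 over 0.1, and 4 of 7 Taar5+ libraries were closest to the control of their own number. That is a hint of pairing from the data, not the design, and the libraries were not treated as pairs. With the replicate block, limma called 13 of all genes and 0 of the 6. The depth is unknown, and values below about 1 TPM and those listed at 0 may be failed estimates.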
